A study of Rattus norvegicus with 4 samples.

Results

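The expression of a TTF1 antagonist, Engr-HD, in PCCl3 cells was followed on 2 of the series' 4 arrays, those whose titles name Engr HD. PCCl3 is an established line of rat thyroid follicular cells. All 38948 probes of these arrays that are not control spots are described, a set not chosen by value. The probes named or ranked below were picked from it by their Engr-HD means. Each array compared RNA of Engr-HD-expressing cells, kept without doxycycline, with RNA of the same transformed cells kept on the drug, in which the construct was off. Expressing cells were labelled with Cy5 on array 1 and with Cy3 on array 2. The other 2 arrays made the same comparison in cells carrying the control protein Engr-HDm.

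Both cultures of each comparison carried the same constructs. Per the labels, clones were first transformed with a pEFIN4 construct under Geneticin, and tTA-expressing clones then took up a pTRE2hyg construct for Engr-HD or Engr-HDm under Geneticin, hygromycin and 2 µg/mL doxycycline. tTA is a transactivator that doxycycline keeps from its promoter, so the drug's removal switches the construct on. Cells were grown for 10 days with or without the drug, and RNA was taken at 50% confluency. For the RNA itself, the extraction protocol speaks of a week off the drug. Engr-HD expression and drug withdrawal always went together, so on the Engr-HD arrays alone the 2 cannot be told apart. Neither the number of clones nor separate cultures for the 2 arrays are named in the labels, and p-values measure only the spread between hybridizations, which may be technical.

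TTF1, the product of Nkx2-1, is a homeodomain transcription factor of thyroid, lung and ventral forebrain. In thyroid follicular cells it acts with Pax8 and Foxe1 on genes of hormone synthesis, among them those for thyroglobulin, thyroid peroxidase and the TSH receptor. The same factor governs surfactant genes in lung epithelium. The deposited values carry probe IDs without gene names, and 0 of the IDs matched the reference table used here. Neither these genes nor the defining markers of follicular cells could therefore be looked up, and the response is described by its size, direction and reproducibility over probes.

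Values are log ratios, read here as log2, of expressing over non-expressing cells. That direction is likely, not stated: the titles name the pair in that order, and expressing cells are the first channel on every array. With the opposite direction every rise below would be a fall. The log base is not stated either, and a larger base would make the true folds greater than those given. The deposited medians of the Engr-HD arrays were -0.001 and -0.002, so the arrays had been centred. The 2 Engr-HD arrays correlated across probes at r = 0.89 (Spearman's rho = 0.736), so both ran the same way despite the swapped dyes. Precision is limited by the number of arrays. The SD between the 2 Engr-HD arrays had a median over probes of 0.0431 and a 95th percentile of 0.213 on the log2 scale.

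Most probes hardly moved when Engr-HD was expressed, and a small share moved far. The mean of the 2 arrays was under 1.1-fold in either direction at 24172 probes, or 62.1%. The central 90% of probes lay between -0.54 and 0.57 on the log2 scale and the central 98% between -1.05 and 1.31, while the extremes were -4.06 and 5.03. In the limma test, fitted on all 4 arrays with Benjamini-Hochberg adjustment at 0.05, 10981 probes changed, or 28.2% of those tested. Of these, 5550 were higher (14.2%) and 5431 lower (13.9%). A probe with opposite signs on the 2 antagonist arrays cannot pass in this fit, so the arrays pointed the same way in all 10981 by construction. The count was 4456 under quantile normalization. It was 5266 from array 2 of the antagonist alone and 5048 from its array 1 alone, each with both Engr-HDm arrays.

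Small changes passed the test in both directions. The smallest mean that passed was 0.11 in size. Between 1.2-fold and 1.5-fold there were 3077 probes higher and 3267 lower, and 82.4% and 79.5% of them passed the limma test. Between 1.5-fold and 2-fold there were 1119 higher and 1253 lower, of which 96.6% and 91.1% passed. Over this range lower probes were slightly more numerous than higher ones.

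Above 2-fold the order turned, and higher probes outnumbered lower ones in every band. Between 2-fold and 4-fold 631 probes were higher and 413 lower. Between 4-fold and 8-fold the counts were 104 and 33. At 8-fold or more they were 38 and 3, and at 16-fold or more 9 and 1. Joined with the limma test, a 2-fold minimum left 1205 probes (3.09%), 758 higher (1.95%) and 447 lower (1.15%). This count fell to 695 when all 4 arrays were scaled to an equal median absolute deviation and to 434 under quantile normalization, both of which shrink the wider Engr-HD ratios by construction.

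**Figure D1:**
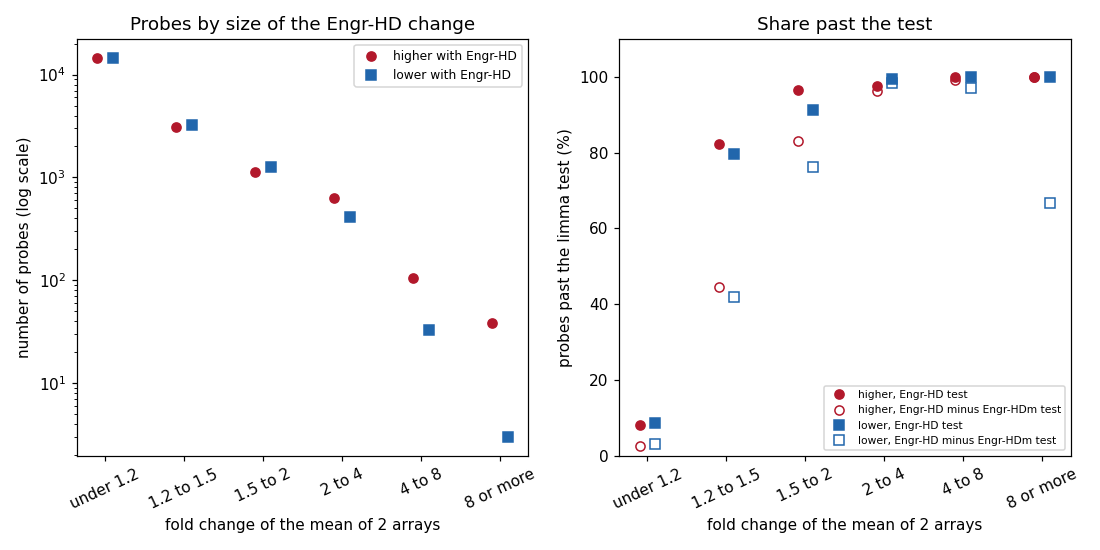
The left panel plots the number of probes (log axis) in bands of the fold change with Engr-HD, the mean of 2 arrays, for probes higher (circles) and lower (squares). Lower probes slightly outnumber higher ones from 1.2-fold to 2-fold, and above that higher ones are more numerous, by 38 to 3 at 8-fold or more. The right panel gives the percentage of each band past the limma test of Engr-HD (filled) and of Engr-HD minus Engr-HDm (open, in the band's direction). The latter rises from 44.5% and 41.8% at 1.2-fold to 1.5-fold to 96.2% and 98.3% at 2-fold to 4-fold.

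All 3 kinds of probe on the array showed this excess of large rises. Among 11986 probes named by an Ensembl rat gene ID, 64 rose by 4-fold or more on average and 14 fell by as much. Among 2413 probes with Operon numbers beginning R0 the counts were 23 and 4, and among 24549 with numbers beginning Rn3 they were 55 and 18. Large rises made up 0.953% of the R0 probes, 0.534% of the Ensembl probes and 0.224% of the Rn3 probes. A gene may have several probes, and the difference between kinds was not tested.

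A change seen on 1 Engr-HD array was largely seen on the other. Of 762 probes at least 2-fold higher on array 1, 663 or 87.0% were at least 2-fold higher on array 2 as well, with a median of 1.33 there against 1.34 on array 1. Of 487 probes at least 2-fold lower on array 1, 394 or 80.9% were so on array 2, and 0 had the opposite sign. Of the 39 probes at least 8-fold higher on array 1, 36 also reached 8-fold on array 2. The large rises thus held in both dye orientations.

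Choosing from array 2 gave a different picture for falls. Of 581 probes at least 2-fold lower on array 2, only 394 or 67.8% were 2-fold lower on array 1, and 96 had the opposite sign there, with a median of 0.24. These 96 probes were low on the Engr-HDm array of the same number too, with a median of -1.36, and all 96 were below 0 on it. In the other direction, 27 of the 762 probes at least 2-fold higher on array 1 had the opposite sign on array 2, and all 27 were above 0 on Engr-HDm array 1, with a median of 1.13. Of these 96 and 27 probes, 0 passed the limma test of Engr-HD, and 0 had an unadjusted p below 0.05. The choice itself fixes this, since a probe with opposite signs on the 2 Engr-HD arrays cannot pass in this fit. Array number and dye orientation coincide, so the part of the dye cannot be told apart from other differences between arrays 1 and 2.

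The Engr-HDm arrays, which correlated across all probes at r = -0.11 (Spearman's rho = 0.195), single out such probes without use of the Engr-HD values. At 456 probes the 2 Engr-HDm arrays differed by at least 1 on the log2 scale, array 1 being the higher at 432 of them. At all 456 the Engr-HD arrays differed in the same direction. Among the other 38492 probes 68.0% did. The 456 include 95 of the 96 probes and all 27 probes above. Only 5 of them passed the limma test of Engr-HD, which the choice itself favours, since the fit pools the spread of both constructs. Of the 1205 probes changed at least 2-fold, 1200 lie outside the set, which the same pooling favours. Without the test, a mean of at least 2-fold was found at 3.73% of the 456 probes and at 3.13% of the others. Smaller means differed more: the median size of the Engr-HD mean was 0.34 at the 456 probes and 0.064 at the others. The cause of this difference was not tested.

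**Figure D2:**
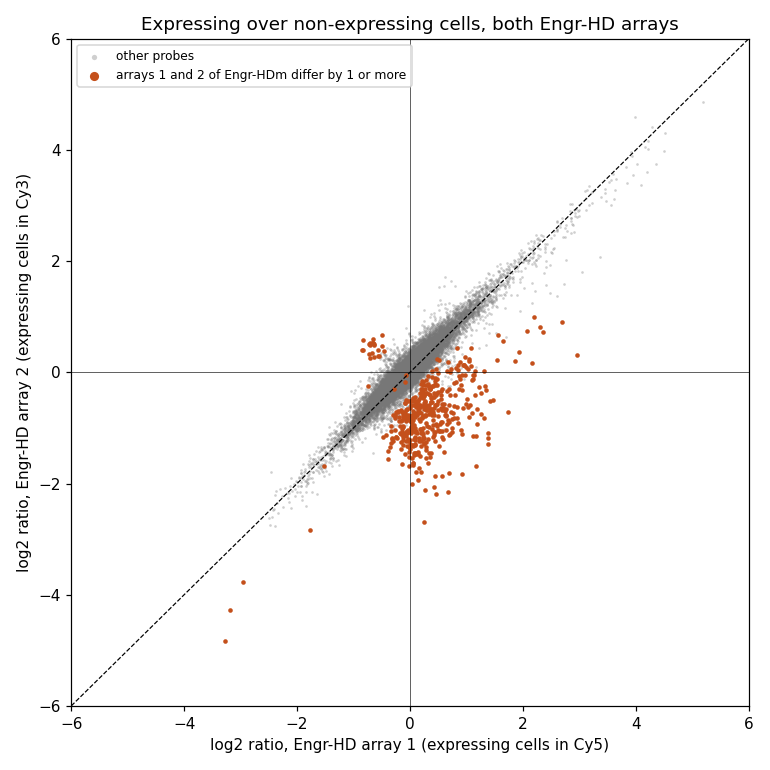
Each point is 1 of 38948 probes, with its log2 ratio (expressing to non-expressing cells) on Engr-HD array 1 (x axis) and array 2 (y axis), and the dashed line marks equal values. Most probes follow the line, while the 456 probes at which the 2 Engr-HDm arrays differ by at least 1 lie off it, most of them below, including the 3 lowest points at the bottom left.

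The largest rises were reproducible and had no counterpart with the control protein. The 10 largest lay between 3.94 and 5.03 on the log2 scale, or 15.4-fold to 32.8-fold. Their values were 3.92 to 5.20 on Engr-HD array 1 and 3.74 to 4.87 on array 2. On the Engr-HDm arrays the same 10 probes, picked by their Engr-HD means, read -0.47 to 0.08 and -0.47 to 0.34. Of the 10 highest probes on array 1, 7 were also among the 10 highest on array 2. Of the 20 highest, 17 were shared in this way, and of the 50 highest, 46.

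Probe ENSRNOG00000010233 rose most. With the antagonist its values were 5.20 and 4.87, and with the control protein -0.16 and -0.20. This probe was picked for its mean of 5.03, which had a 95% confidence interval of 4.79 to 5.28 (limma, adjusted p = 0.000337). Probe Rn30009383 read 4.51 and 4.30 with Engr-HD and -0.17 and 0.01 with Engr-HDm, a mean of 4.40 with an interval of 4.20 to 4.61 (limma, adjusted p = 0.000323). The probe with the next Operon number was the fourth largest rise, with a mean of 4.30 ± 0.42 for the antagonist and 0.04 ± 0.26 for the control protein (SD, n = 2 arrays each). The sources used here do not say what these probes detect.

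The largest falls were smaller than the largest rises. The 10 largest lay between -4.06 and -2.43 on the log2 scale, or from 16.6-fold to 5.4-fold below the non-expressing cells. Of the 10 lowest probes on array 1, 7 were among the 10 lowest on array 2, as many as for the rises. Of the 20 lowest, 13 were shared in this way, and of the 50 lowest, 34. The SD between the Engr-HD arrays had a median of 0.137 over the 20 largest falls and of 0.145 over the 20 largest rises. For probe Rn30005481 arrays 1 and 2 of the antagonist gave -3.28 and -4.83, and those of the control protein 0.39 and -1.57. Array 2 was the lower one with both constructs, and the mean of -4.06 had a wide interval of -5.83 to -2.29 (limma, adjusted p = 0.0164). The probe with the number after Rn30005481 read only -0.31 and -0.37 with Engr-HD, a mean of -0.34. Probe Rn30005480, with the number before Rn30005481, read -3.18 and -4.28 with Engr-HD and 0.81 and -0.96 with Engr-HDm. Its Engr-HD mean was -3.73 with an interval of -5.20 to -2.26 (limma, adjusted p = 0.0125).

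Rn30005481, Rn30005480 and the third largest fall belong to the 456 probes described above. At each of the 3 the Engr-HD arrays stayed below both Engr-HDm arrays. The 3 were picked for their low Engr-HD means, which favours this by itself. For the first 2 the test of Engr-HD was lost without either Engr-HD array, with limma adjusted p-values of 0.0595 and 0.118 for Rn30005481 and 0.0615 and 0.103 for Rn30005480. Their values there were the single-array ones given above. Under quantile normalization it was lost as well, at means of -2.98 and -2.79. In a fit with a replicate block for the array number, and so for the dye orientation, both calls held (limma adjusted p = 1.51e-05 and 3.61e-05). That fit left only 1 residual degree of freedom and called 16314 probes in all. The fourth largest fall, an Ensembl probe, was even between arrays, at -2.48 and -2.74 with Engr-HD and -0.005 and 0.11 with Engr-HDm. It passed with a mean of -2.61 ± 0.19 (SD, n = 2 arrays; limma, adjusted p = 0.000494).

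**Figure D3:**
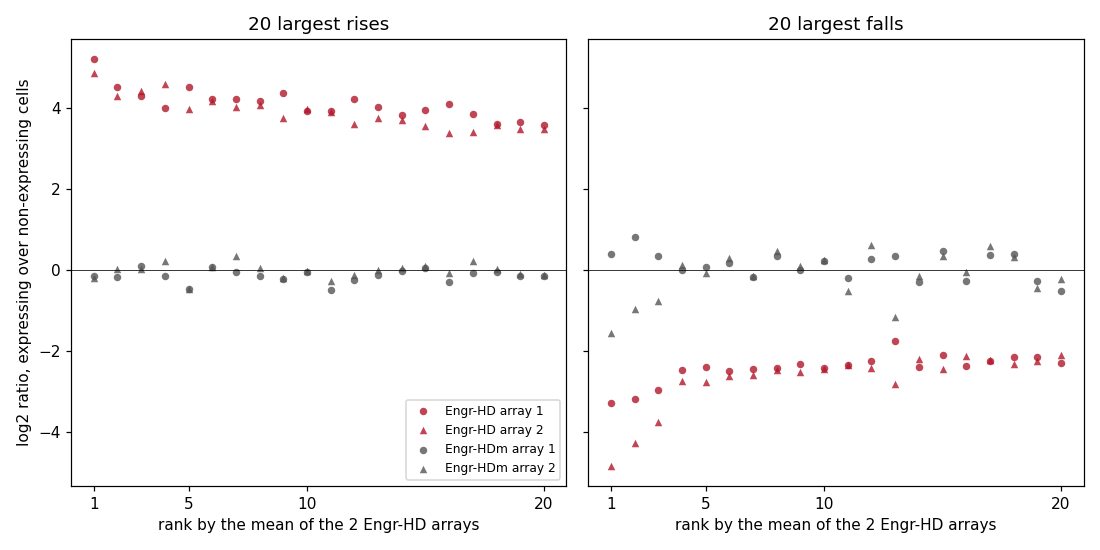
Log2 ratios of the 20 largest rises (left) and the 20 largest falls (right), ranked by the mean of the 2 Engr-HD arrays, with Engr-HD in red and Engr-HDm in grey, circles for array 1 and triangles for array 2. The rises stand clear of the Engr-HDm values around 0 on both arrays. Among the falls, the first 3 and the 13th show array 2 well below array 1 with both constructs.

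A minority of the changed Operon probes had an adjacent number that changed alike. Of 350 Rn3 probes at least 2-fold higher that have an adjacent number on the array, 57 or 16.3% had an adjacent probe at least 2-fold higher, and 5 had one at least 2-fold lower. Of 227 at least 2-fold lower, 34 had an adjacent probe at least 2-fold lower, and 5 had one at least 2-fold higher. Over all 24312 Rn3 probes with a neighbour, 2.59% had an adjacent probe 2-fold higher and 1.65% one 2-fold lower. These shares were not tested, and the sources used here do not say whether adjacent numbers share a transcript.

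The comparison with Engr-HDm asked how much of the response goes beyond doxycycline withdrawal with the control protein. Cells for the 2 constructs were transformed separately, so differences between clones cannot be told apart from the construct here. The 2 constructs differed at 6656 probes (limma, adjusted p below 0.05), or 17.1% of those tested, 3440 upwards with Engr-HD (8.83%) and 3216 downwards (8.26%). Of the 1205 probes changed at least 2-fold with Engr-HD, 1188 or 98.6% passed this test too. The 2 tests share the Engr-HD arrays, so this overlap is not separate evidence. The 17 probes that did not pass had adjusted p-values of 0.0513 to 0.571, and Rn30005481 was 1 of them. Once the fit held the replicate block for the dye orientation, this probe's difference passed (limma, adjusted p = 8.98e-05). The blocked fit left only 1 residual degree of freedom. The count of 6656 was 4328 with an equal median absolute deviation, 1829 under quantile normalization and 2162 to 2773 with any 1 array left out, and it rose to 12891 with the replicate block.

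The control protein's own values at these probes depended on the size of the Engr-HD change. Among the 1253 probes 1.5-fold to 2-fold lower with Engr-HD, the Engr-HDm mean had a median of -0.10, and 918 or 73.3% were below 0, against 55.2% of the probes less than 1.2-fold lower. Among the 1119 probes 1.5-fold to 2-fold higher, its median was 0.04, and 701 or 62.6% were above 0, against 54.2% of those less than 1.2-fold higher. For larger changes the sign with Engr-HDm was close to even: 55.2% of the probes 2-fold to 4-fold higher were above 0, and 54.5% of those 2-fold to 4-fold lower were below it. At the 142 probes at least 4-fold higher the Engr-HDm median was 0.004, and at the 36 at least 4-fold lower it was 0.02.

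Changes of 1.5-fold or more in the same direction with Engr-HDm were found at 0 of the 773 probes at least 2-fold higher with Engr-HD and at 5 of the 449 at least 2-fold lower, or 1.11%. Over all probes they were found at 0.0258% of those higher and 0.196% of those lower with Engr-HD, and the difference was not tested. Opposite changes of that size were found at 2 and at 1 probe. The spread of the Engr-HDm values was wider at the falls: between 2-fold and 4-fold the quartiles were -0.18 and 0.12 for the falls and -0.07 and 0.11 for the rises.

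**Figure D4:**
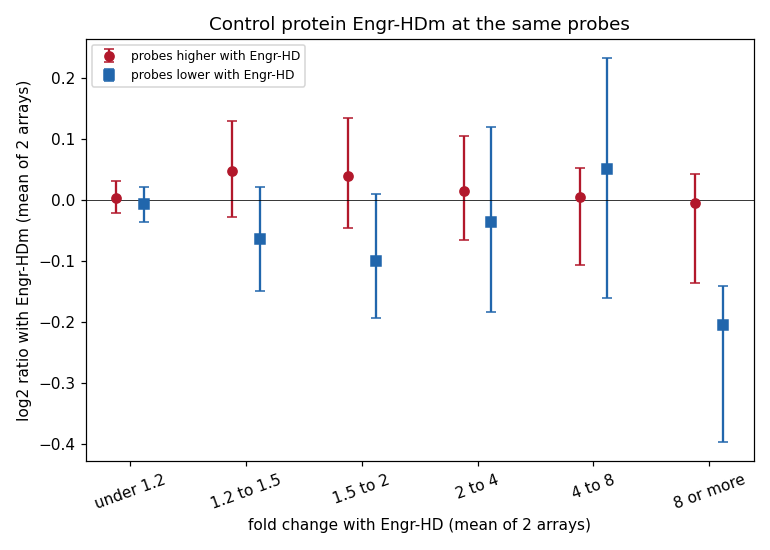
The median log2 ratio with the control protein Engr-HDm, the mean of its 2 arrays, is plotted for probes in bands of the fold change with Engr-HD, with bars from the lower to the upper quartile over probes. Probes moderately lower with Engr-HD (squares) sit below 0 with Engr-HDm as well, at -0.10 for 1.5-fold to 2-fold, while the medians from 2-fold to 8-fold lie between -0.04 and 0.05. The last band of falls holds 3 probes.

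A 2-fold mean did not always pass the test. At 17 probes, 15 higher and 2 lower, it failed, with limma adjusted p-values of 0.0576 to 0.648. Their SD between the Engr-HD arrays had a median of 0.943, against 0.0849 for all 773 probes at least 2-fold higher, and 1 of them had opposite signs on the 2 arrays. The fit pools the spread of both constructs, so probes that fail it at this size are uneven by construction.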

How the data were processed

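Two-colour arrays of rat 70-mer probes were hybridized with pairs of amplified, Cy5- or Cy3-labelled RNA, with the dyes swapped between arrays 1 and 2, per the labels' protocols. For every array the authors deposited 1 log ratio per probe, read here as log2. The base, direction, background correction, normalization and scanner software are not given in the sources used here, and dim probes could not be filtered, as the values hold no brightness. Its rows number 38960, while the series' design states 34717 probes. The 12 control rows, within 0.088 of 0, were left out.

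After median centring of each array, limma 3.58.1 (R 4.3.3; lmFit, then eBayes) gave two-sided tests per probe, adjusted by Benjamini-Hochberg over 38948 probes at a threshold of 0.05. The 4 arrays were fitted jointly, with a mean for each construct, which left 2 residual degrees of freedom. The code was tested on simulated data. A constant dye bias drops out of the mean of a swapped pair but adds to its spread. Alternatives were uncentred values, quantile normalization, scaling to 1 median absolute deviation, robust empirical Bayes, the Engr-HD arrays alone, the array number as a replicate block, each array left out, a threshold of 0.1 and a 2-fold minimum without a test. Leaving out the 456 probes uneven between the Engr-HDm arrays was added after seeing the data.

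The comparisons and the 24 gene lists were chosen with earlier results of these data known. The lists and marker genes could not be applied, since 0 probe IDs matched a gene. Named by ID are the 2 largest rises and the 2 largest falls that passed and pointed the same way on both Engr-HD arrays, the rule for probes without gene names. Other probes are given by rank.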

Additional observations from a re-analysis of the deposited data

Results flagged for a closer look

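The change with Engr-HD differed from that with Engr-HDm, in the limma test of the difference, at 6656 probes. Among the probes named by ID it differed at ENSRNOG00000010233 by 5.21 and at Rn30009383 by 4.48 on the log2 scale, upwards with Engr-HD. At Rn30005480 it differed by -3.65, downwards, with a limma adjusted p of 0.0493. Each of the 4 fits with an array left out put this p above the threshold, at 0.0529 to 0.194. Groups of 2 arrays are too small for a test of whether an array stands apart.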

How the results depend on the processing

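Without centring, with robust empirical Bayes, with the Engr-HD arrays alone, with a threshold of 0.1 and without the 456 uneven probes, the 3 counts of changed probes stayed within 1.5 times their reported values wherever they were computed. The 2-fold count without a test was 1221. With an equal median absolute deviation 695 probes changed at least 2-fold with Engr-HD and 4328 differed between the constructs. Quantile normalization gave 4456 with Engr-HD, 434 of them at least 2-fold, and 1829 in the difference. Both settings give the constructs a like spread of ratios by construction. With a replicate block for the array number (1 residual degree of freedom) 12891 differed, including all 6656. That block also left 16314 with Engr-HD and 1222 at 2-fold. The number marks the dye orientation, and only 2 pairs share a number. When any 1 array was left out, the counts were 5048 to 9777 with Engr-HD, 1165 to 1235 at 2-fold and 2162 to 2773 in the difference, with fewer arrays and 1 residual degree of freedom, where a lone array is assumed to vary like the other construct's. Of 80 values of the named probes across these settings, 66 stayed on the same side of the threshold with the same sign, 13 no longer passed, 1 newly passed and 0 turned direction. For these the cause was not tested. The values hold no brightness, so how far background limits the small ratios was not tested.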
